A study of Homo sapiens with 6 samples.

Results

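The levels of 10 genes of the Krüppel-like factor (KLF) family were read in LNCaP cells, an androgen-responsive line of human prostate cancer cells, before and during treatment with dihydrotestosterone (DHT), a potent androgen. The members were the lines of the deposited table that carry a KLF symbol of the chosen set: 9 were found by symbol, and KLF6 by the description of a line without a symbol, so 10 of 17990 genes were described. The listed KLF6 line is 1 transcript, and its other transcripts were not analysed here. There were 5 libraries of cells with 10 nM DHT, taken at 3, 6, 12, 24 and 48 h, and 1 library of untreated cells at 0 h; all cells, the untreated ones included, had first been kept for days in phenol red-free medium with serum stripped of hormones by charcoal and dextran. Each group had 1 library, with 13179917 to 20587956 counts over the listed genes.

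Krüppel-like factors are transcription factors that end in 3 zinc fingers of the C2H2 type and bind GC-rich and CACCC-containing DNA. Their zinc fingers are much alike, and the parts before the fingers differ, so that some members recruit acetyltransferases and activate genes while others recruit the SIN3 or CtBP corepressors. In epithelia they are known for their part in the balance of growth and differentiation, and several are induced by steroid hormones.

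A single library per group leaves no replicate error to set a difference against, so no p-values are given. Levels are in CPM, a gene's count scaled by the summed count of its library, and intervals are exact 95% intervals that cover counting error only. A gene is called higher or lower where log2(CPM + 1) differed from 0 h by at least 1, a 2-fold change; 11916 genes had the mean of at least 20 counts asked for, and all 10 members did. All comparisons share the 0 h library, and untreated cells of later times were not used here. In such bulk RNA, fewer cells of a kind and less RNA per cell cannot be told apart. The luminal prostate markers KLK2, KLK3, TMPRSS2, HOXB13, FOLH1, KRT8 and KRT18 were all measured, with summed levels of 7962 to 21776 CPM, while the basal markers KRT5, KRT14 and TP63 summed to 0.332 to 0.895 CPM and the leukocyte markers PTPRC and CD3E to at most 0.0759 CPM. Of 4 fibroblast markers COL1A2 had 0 reads in 5 of 6 libraries, and the list summed to 32.4 to 72.1 CPM, with COL1A1 at 31.2 CPM at 24 h, against 62.8 CPM at 0 h. PDGFRB, below the count minimum, had 0.389 CPM at 24 h, against 2.73 CPM at 0 h.

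Members moved in both directions under DHT. KLF4, KLF5 and KLF15 were higher at 6, 12, 24 and 48 h, KLF10 was lower at 3, 24 and 48 h, and KLF6 was higher at 3, 6 and 48 h. At 24 h, 3 of 10 members were higher, against 10.5% of all genes, and 2 were lower, against 10.8% of all genes. The median log2 change of the members at 24 h was 0.66, and that of all genes was -0.09. At 3, 6 and 48 h the members' median was -0.22, 0.83 and 0.97, and that of all genes -0.08, 0.08 and -0.06. Changes followed the GC content of transcripts, and with that trend subtracted the members' median was -0.07, 0.36, 0.43 and 0.67 at 3, 6, 24 and 48 h. KLF2, KLF7 and KLF17, measured but outside the chosen set, had -0.38, 0.04 and 0.02 at 24 h. The 10 members were chosen with earlier results of these data known, so their medians and shares do not describe the whole family. At 48 h, 4 were higher (KLF4, KLF5, KLF6 and KLF15), against 15% of all genes, and KLF10 alone was lower, against 7.33%. At 3 h, when few genes had changed, 2 of 10 members were higher (KLF5 and KLF6), against 0.747% of all genes, and 1 was lower (KLF10), against 0.864%. At 6 h, 5 were higher, against 15.3%, and 2 were lower (KLF11 and KLF16), against 3.01%. At 12 h, 3 were higher, against 11%, and KLF3 was lower, against 7.99%, but in that library the median gene of chromosome 4, where KLF3 lies, had 10.4% of the mean of its 6 h and 24 h levels, and that of distal chromosome 15 had 8.10%. Outside these regions 3 of 9 members were higher, against 11.7% of 10990 genes, and 0 were lower, against 3.82%; the median of the 9 members was 0.07 and that of those genes 0.08. The share of 1 lower member in 10 at 48 h is near that of all genes.

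**Figure D1:**
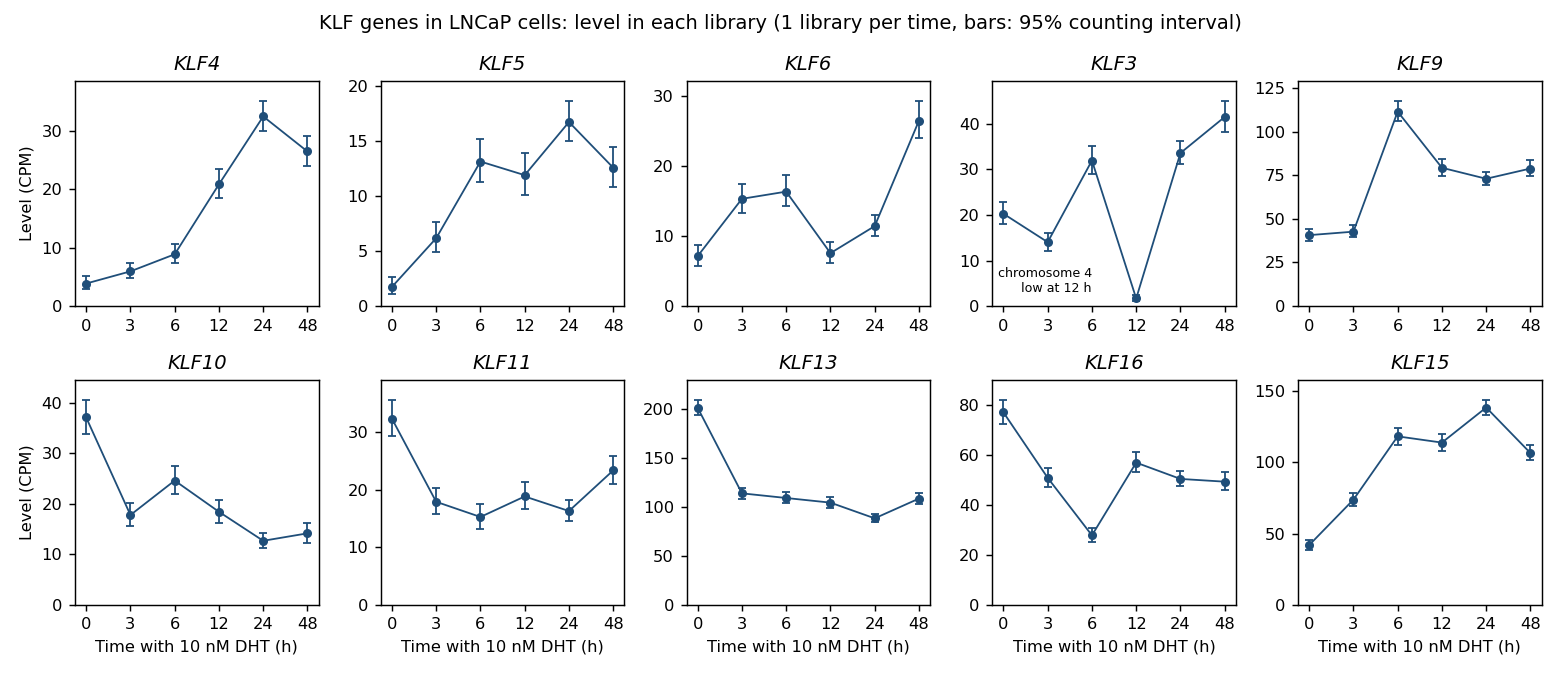
Level of each KLF gene in CPM (vertical axes, each from 0) in the library of each time with 10 nM DHT (horizontal axis, h, 0 being untreated cells); points are single libraries and bars are exact 95% counting intervals. KLF4, KLF5, KLF6, KLF9 and KLF15 were lowest at 0 h, and KLF10, KLF11, KLF13 and KLF16 were highest there.

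Promoters of members that moved in either direction are shown, since these factors bind GC boxes and CACCC boxes and such letters stand in the promoters of the family itself. The stretches run 250 bases before to 50 bases after a start site in RefSeq on GRCh38.p14; the start nearest to the listed transcript was taken, and the 4 genes were picked with their values known. Capitals mark the GC box GGGCGG and the CACCC box, on both strands (CCGCCC and GGGTG on the other), which may overlap.
KLF4, chr9:107489720-107490019, minus strand: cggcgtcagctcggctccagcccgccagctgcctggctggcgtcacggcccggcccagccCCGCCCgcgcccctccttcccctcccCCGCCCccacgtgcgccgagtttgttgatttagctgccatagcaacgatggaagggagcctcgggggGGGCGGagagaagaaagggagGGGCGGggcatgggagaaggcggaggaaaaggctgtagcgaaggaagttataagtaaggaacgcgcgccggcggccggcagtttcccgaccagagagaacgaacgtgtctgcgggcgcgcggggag
KLF5, chr13:73058755-73059054, plus strand: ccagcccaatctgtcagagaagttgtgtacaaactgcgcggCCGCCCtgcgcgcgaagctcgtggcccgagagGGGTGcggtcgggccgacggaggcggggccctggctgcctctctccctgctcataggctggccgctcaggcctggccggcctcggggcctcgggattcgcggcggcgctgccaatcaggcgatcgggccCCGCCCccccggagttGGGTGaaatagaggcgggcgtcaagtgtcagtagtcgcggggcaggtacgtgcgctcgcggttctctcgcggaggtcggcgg
KLF15, chr3:126357359-126357658, minus strand: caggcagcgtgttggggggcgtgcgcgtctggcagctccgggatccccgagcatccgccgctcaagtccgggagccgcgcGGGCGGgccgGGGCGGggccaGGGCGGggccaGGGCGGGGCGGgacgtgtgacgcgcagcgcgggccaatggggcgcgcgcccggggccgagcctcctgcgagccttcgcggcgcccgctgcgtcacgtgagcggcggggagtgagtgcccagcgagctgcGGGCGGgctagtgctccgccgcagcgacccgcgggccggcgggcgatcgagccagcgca
KLF13, chr15:31326585-31326884, plus strand: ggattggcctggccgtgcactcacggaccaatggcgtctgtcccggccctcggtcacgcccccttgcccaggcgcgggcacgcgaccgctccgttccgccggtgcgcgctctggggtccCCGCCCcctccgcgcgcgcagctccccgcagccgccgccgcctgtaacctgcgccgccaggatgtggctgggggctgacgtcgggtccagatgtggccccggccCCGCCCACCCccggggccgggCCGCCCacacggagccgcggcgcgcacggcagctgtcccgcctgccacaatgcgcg
The KLF4 window held 4 GC boxes and no CACCC box, the KLF5 window 2 of each, the KLF15 window 6 GC boxes, and the KLF13 window 3 GC boxes and 1 CACCC box that overlaps one of them. Windows were scanned for 8 members, which had 10 start sites, and KLF3 and KLF10 were not scanned. Of the 8 members, 7 held a GC box and 3 a CACCC box at some start site (8 and 4 of the 10 start sites). Of all 35093 windows of this length, 44.9% hold the first and 59.9% the second. The androgen response half-site TGTTCT, searched on both strands, was present for 1 of the 8 members, at the other KLF5 start site, and in 14.8% of all windows. A match is a description of the letters only.

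KLF4, a factor of epithelial differentiation that is also used to reprogram cells to pluripotency, had 3.87, 5.95, 8.87, 20.8, 32.4 and 26.5 CPM at 0 h and after 3, 6, 12, 24 and 48 h. It was lowest in untreated cells, and each library up to 24 h lay above the one before. The level at 24 h was 8.39 times that at 0 h (6.30 to 11.4), a log2 change of 2.78. The change at 6 h was 1.02, and it was 0.65 with a pseudocount of 5 CPM and also short of 2-fold when libraries were scaled by trimmed means (TMM), by the median of ratios or by the deposited totals. The 12 h level was 2.35 times that of 6 h (1.89 to 2.93). At 48 h the level was 0.815 times that at 24 h (0.718 to 0.924).

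KLF5, a factor of proliferating epithelium that has targets in the cell cycle, had 1.75, 6.16, 13.1, 11.9, 16.7 and 12.6 CPM in the same order of times. These rest on 23, 87, 176, 162, 344 and 189 reads. It was already 3.53-fold higher at 3 h (2.21 to 5.86) and 7.52-fold at 6 h (4.85 to 12.2), and stayed between 6.81-fold and 9.57-fold from 12 to 48 h. KLF4 stood at 2.29-fold at 6 h (1.64 to 3.25), so KLF5 was ahead of it at that time. At 3 h its log2 change of 1.38 lay above that of 99.7% of all genes; with a pseudocount of 5 CPM it was 0.73.

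KLF6, described as a candidate tumor suppressor of the prostate, had 7.13, 15.3, 16.3, 7.56, 11.4 and 26.5 CPM. It passed 2-fold at 3 h (log2 change 1.004), 6 h (1.09) and 48 h (1.76), while at 12 h it was back near its starting level, with a ratio of 1.06 (0.793 to 1.42). The 12 h library had 0.463 times the level of 6 h (0.363 to 0.588), and the 48 h library 2.32 times that of 24 h (1.97 to 2.73). KLF6 thus had high levels early and late. The calls at 3 and 6 h were near the threshold: with a pseudocount of 5 CPM the changes were 0.74 and 0.81.

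**Figure D2:**
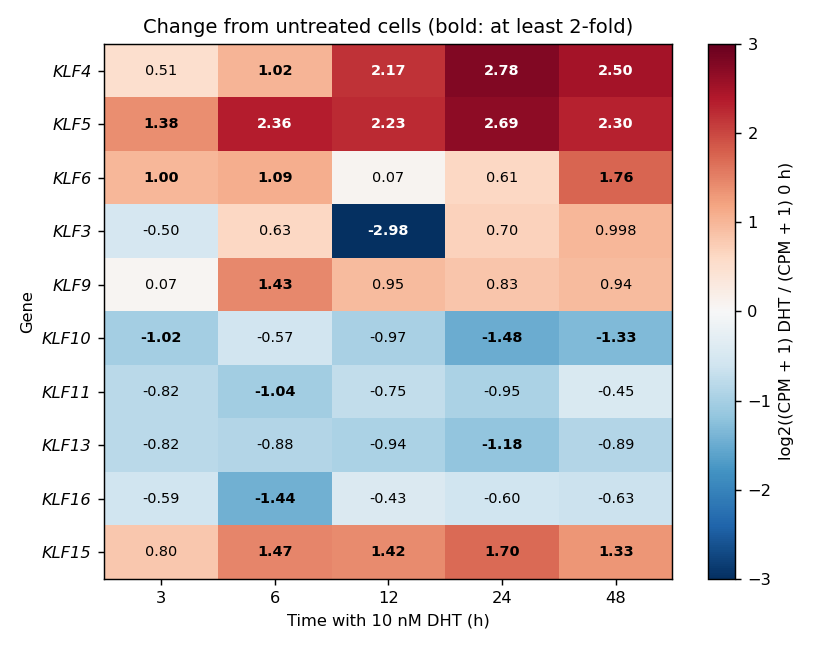
Log2 change of each member (rows) at each time (columns, h with 10 nM DHT) against untreated cells, on log2(CPM + 1); red is higher with DHT, blue lower, and bold numbers are past 2-fold. KLF4, KLF5 and KLF15 were past 2-fold from 6 h on, and KLF3 had -2.98 at 12 h, in the library where chromosome 4 was low.

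KLF15, a glucocorticoid-induced regulator of amino acid and glucose metabolism, had 41.9, 73.8, 118, 114, 138 and 106 CPM, or 552, 1041, 1585, 1551, 2850 and 1602 reads. All 5 DHT libraries lay above the untreated one, and counting intervals were narrow. The level was 1.76 times that of untreated cells at 3 h (1.59 to 1.96) and 2.82 times at 6 h (2.56 to 3.11). The ratio was greatest at 24 h, with 3.31 (3.02 to 3.63), and the 48 h library had 2.54 (2.31 to 2.81). At 3 h the log2 change of 0.80 was short of 2-fold, yet above that of 98.8% of all genes.

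KLF9, a target of glucocorticoid and thyroid hormone that can bind SIN3, had 40.7, 42.7, 111, 79.3, 73.0 and 78.8 CPM. Its highest point came at 6 h: the 3 h library lay at 1.05 times the 0 h level (0.932 to 1.18), and the 6 h library at 2.74 times (2.48 to 3.03). The log2 change at 6 h was 1.43. From 12 to 48 h it stood at 1.79 to 1.95 times the 0 h level, short of 2-fold, although TMM scaling brought the changes at 24 and 48 h to 1.01 and 1.02. The 24 h level was 0.655 times that of 6 h (0.609 to 0.704).

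The other members that bind the SIN3 corepressor, KLF10, KLF11, KLF13 and KLF16, had their highest level in untreated cells. KLF10, an early gene of TGF-beta signalling, had 37.1, 17.8, 24.6, 18.4, 12.7 and 14.2 CPM. It fell at 3 h (ratio 0.479, 0.410 to 0.559), at 24 h (0.342, 0.293 to 0.398) and at 48 h (0.382, 0.323 to 0.449), and at 6 and 12 h its log2 changes were -0.57 and -0.97. The 3 h change of -1.02 was -0.89 with a pseudocount of 5 CPM, and TMM, median-of-ratios scaling and GC correction also left it short of 2-fold. KLF11, its close relative, had 32.4, 17.9, 15.3, 18.9, 16.3 and 23.4 CPM. It passed 2-fold at 6 h (log2 change -1.04, and -0.88 with a pseudocount of 5 CPM) and stood at -0.45 at 48 h, when it was 1.43 times its 24 h level (1.23 to 1.67).

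KLF13, a regulator of CCL5 in T cells, had the highest level per kilobase of the members before treatment, and its levels were 202, 114, 109, 105, 88.5 and 109 CPM. Most of its difference was present at 3 h, where the ratio was 0.566 (0.531 to 0.602); the ratios of 6 h to 3 h and of 12 h to 6 h, 0.958 and 0.957, had intervals that include 1. It fell past 2-fold at 24 h only, with a ratio of 0.439 (0.413 to 0.466), and TMM scaling ended that call by a narrow margin. KLF16, known in mice as a regulator of dopamine receptor genes, had 77.1, 50.9, 27.8, 56.9, 50.4 and 49.3 CPM. Its lowest value, at 6 h, was 0.361 times the 0 h level (0.320 to 0.407), a log2 change of -1.44, and the 12 h level was 2.05 times that of 6 h (1.81 to 2.32). Of the fibroblast markers COL1A1 and COL3A1 were measured, and COL3A1 had 0.729 CPM at 24 h, against 4.32 CPM at 0 h; their part in these values was not tested.

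**Figure D3:**
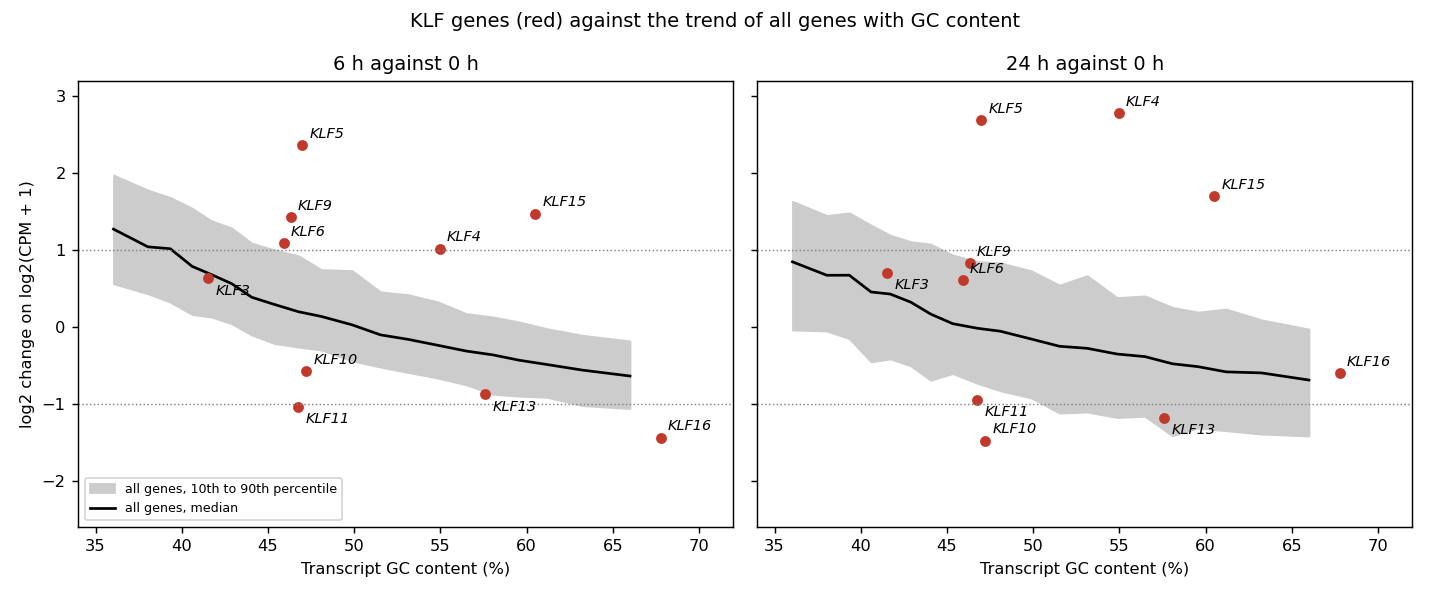
Log2 change against untreated cells (vertical axis) at 6 h (left) and 24 h (right) by GC content of the transcript (horizontal axis, %); the line and band are the median and the 10th to 90th percentile of all genes in 20 bins, red points are KLF genes and dotted lines mark 2-fold. KLF4, KLF5 and KLF15 lay above the band at both times, KLF10 and KLF11 below it at both, and KLF13 inside it at 24 h.

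Changes of all genes moved with the GC content of their transcripts. Across genes r was -0.740 at 6 h and -0.514 at 24 h (genes are not independent replicates), and 0.234, of the opposite sign, at 3 h. The members span 41.5% (KLF3) to 67.8% GC (KLF16). With the trend of each time subtracted, KLF15, at 60.5% GC, had a larger change at 24 h, 2.25 in place of 1.70, and KLF4 had 3.14 in place of 2.78. KLF10 kept -1.45 at 24 h and KLF5 2.71. KLF13 had -0.72 at 24 h, and KLF16 -0.75 at 6 h and 0.14 at 24 h, so neither was past 2-fold, and KLF16 changed sign at 12 and 24 h. KLF6 at 6 h had 0.81. KLF9 kept its peak at 6 h, with 1.18. Whether GC content had a part in the changes of KLF13 and KLF16 was not tested.

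KLF3, which recruits CtBP and acts as a repressor in fat and red blood cells of mice, had 20.3, 14.03, 31.9, 1.69, 33.6 and 41.5 CPM. The 12 h value rests on 23 reads, against 428 at 6 h and 691 at 24 h. KLF3 lies on chromosome 4, and in the 12 h library the median gene of that chromosome had 10.4% of the mean of its 6 h and 24 h levels (386 genes), against 104% on the other chromosomes apart from 15. KLF3 had 5.16%, and 19 of the 20 measured genes nearest to it in order had at most 23.9%; the other, RPL9, had 122%. The KLF3 value at 12 h is therefore not read as a change of the gene. Apart from 12 h KLF3 had ratios of 0.693 at 3 h (0.573 to 0.835), 1.58 at 6 h (1.35 to 1.84) and 1.66 at 24 h (1.44 to 1.92). At 48 h the ratio was 2.05 (1.77 to 2.37), where its log2 change of 0.998 was just short of 2-fold. TMM scaling gave 1.08, median-of-ratios scaling 1.04 and a pseudocount of 0.25 CPM 1.02, all past 2-fold, while with the GC trend subtracted it was 0.44, and the change at 6 h was -0.08 in place of 0.63. KLF13, on chromosome 15, lies before the part of that chromosome that was low at 12 h: it had 106% of the mean of 6 h and 24 h, and its 20 neighbours had 70.3 to 136%.

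**Figure D4:**
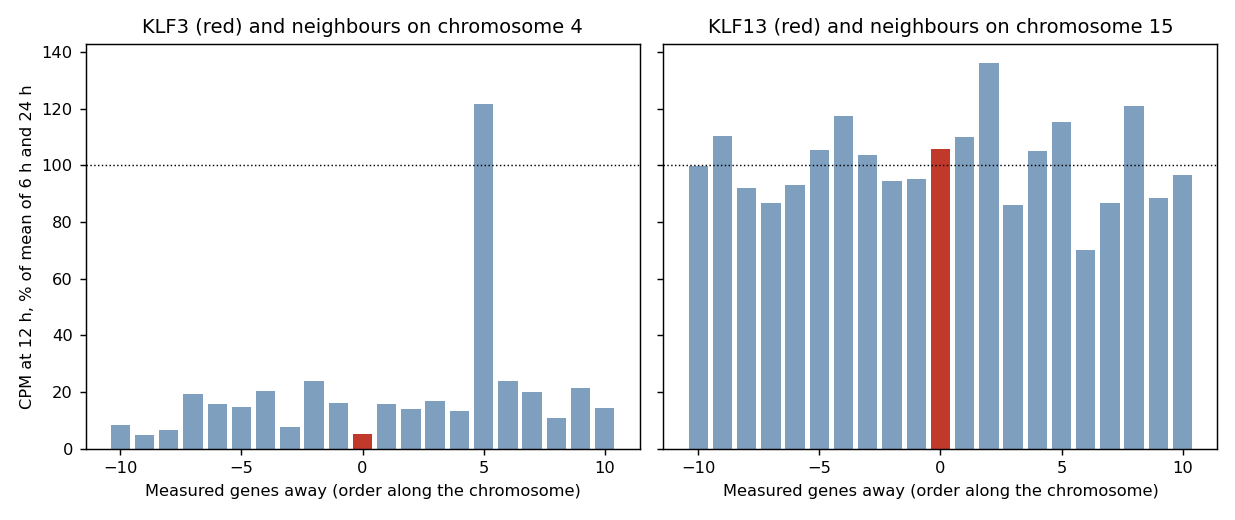
Level at 12 h as a percentage of the mean of the 6 h and 24 h levels (vertical axis) for KLF3 (left, red), KLF13 (right, red) and the 10 measured genes on each side of them in order along the chromosome (horizontal axis). KLF3 and 19 of its 20 neighbours lay at or below 23.9%, while KLF13 and its neighbours lay between 70.3 and 136%.

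Levels of different members are compared per kilobase of the longest GENCODE v29 transcript. In untreated cells KLF13 led with 29.5 CPM per kb (27.9% of the summed value of the 10), followed by KLF16 with 26.7, KLF15 with 16.3, KLF10 with 10.1, KLF11 with 8.03, KLF9 with 7.86, KLF3 with 3.96, KLF6 with 1.53, KLF4 with 1.38 and KLF5 with 0.489.

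At 24 h KLF15 led with 53.8 CPM per kb, 41.0% of the sum, against 15.4% of the sum at 0 h. KLF13 held 9.90% at 24 h, against 27.9% at 0 h, and KLF4 held 8.80% at 24 h, against 1.30% at 0 h. The summed value of all 10 members was 131 CPM per kb at 24 h, against 106 at 0 h. Within the SIN3-binding members (KLF9, KLF10, KLF11, KLF13 and KLF16) the sum was 52.0 CPM per kb at 24 h, against 82.3 at 0 h, and it was already 51.9 at 3 h. KLF9 alone of these was higher at 24 h, with 14.1 CPM per kb against 7.86 at 0 h. Within KLF4, KLF5 and KLF6 the sum was 18.7 at 24 h, against 3.40 at 0 h.

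Neighbours in the order whose counting intervals overlapped were KLF11 with KLF9 and KLF6 with KLF4 at 0 h. At 24 h they were KLF9 with KLF13, KLF13 with KLF4, KLF5 with KLF11 and KLF11 with KLF10, out of 9 pairs of neighbours each. At 48 h KLF15 still led, with 41.4 CPM per kb, and 5 of 9 pairs overlapped, among them KLF16 with KLF13 and KLF13 with KLF9. Length bears on this order, and the KLF6 length is that of the gene's longest transcript and not of the listed one. With the median transcript length in place of the longest, 0 of 10 members kept their place at 24 h.

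**Figure D5:**
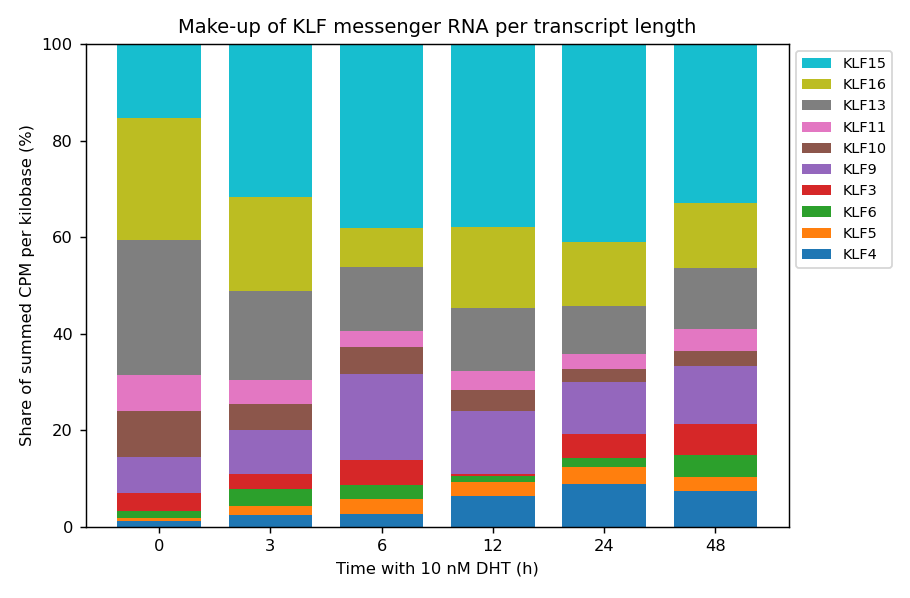
Share of each member in the summed CPM per kilobase of the 10 KLF genes (vertical axis, %) in the library of each time with 10 nM DHT (horizontal axis, h, 0 being untreated cells). KLF15 took 41.0% at 24 h, against 15.4% at 0 h, and KLF13 took 9.90% at 24 h, against 27.9% at 0 h; at 12 h KLF3 is low with its chromosome.

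The genes whose changes at 3, 6, 24 and 48 h lay nearest to those of a member, by Euclidean distance over these 4 log2 changes among 11916 genes, differed from member to member. For KLF4 they were the growth arrest gene GADD45G at a distance of 0.32, the spermine synthase gene SMS at 0.43 and the ornithine decarboxylase gene ODC1 at 0.43. For KLF5 they were the Wnt receptor gene FZD5 at 0.22, TIPARP at 0.62 and KCNN2 at 0.66; FZD5 had 1.42, 2.18, 2.81 and 2.34 at the 4 times, where KLF5 had 1.38, 2.36, 2.69 and 2.30.

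KLF15 lay nearest to the MAP kinase phosphatase gene DUSP10 at 0.23, the ubiquitin ligase gene NEDD4L at 0.26 and TWIST1 at 0.30, and KLF6 to CACNG4 at 0.37, FRK at 0.55 and PCTP at 0.57. KLF10 lay nearest to ZBTB32 at 0.25, LOC283129 at 0.30 and FBLN7 at 0.31. KLF13 lay nearest to ISL2 at 0.12, STC1 at 0.14 and ENG, which encodes the TGF-beta co-receptor endoglin, at 0.19. Some of these neighbours were low genes, whose changes log2(CPM + 1) understates, so a small distance need not be an equal ratio. ISL2 had 2.14 CPM at 24 h against 6.53 CPM at 0 h, and STC1 0.777 CPM against 3.11 CPM. KLF13 had 88.5 CPM at 24 h against 202 CPM at 0 h.

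Of 7 other KLF genes, 3 were measured, all at low levels: KLF2, KLF7 and KLF17 had log2 changes of -0.38, 0.04 and 0.02 at 24 h, and none was past 2-fold then. KLF7 passed 2-fold at 6 h only, with 6.26 CPM at 6 h against 2.20 CPM at 0 h, and did not pass it with the GC trend subtracted. KLF1, KLF8, KLF12 and KLF14 were below the count minimum. Of the related SP factors, which bind the same GC boxes, 6 were measured and 1 was higher at 24 h: SP3, with 83.3 CPM at 24 h against 31.8 CPM at 0 h, a log2 change of 1.36 that was 0.76 with the GC trend subtracted. SP1, SP4 and SP8 had 0.59, 0.56 and -0.38. The median of these 6 was 0.34, and that of all genes -0.09; 1 of 6 is near the 10.5% of all genes that were higher.

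Among partners of KLF proteins, 2 of 15 genes of the SIN3 complex were higher at 24 h, against 10.5% of all genes, and 0 lower, against 10.8%, with a median of 0.31, where all genes had -0.09. The count of higher genes is near the share of all genes. They were ARID4B (1.61) and ARID4A (1.26), 2 related chromatin-binding subunits, which with the GC trend subtracted had 1.004 and 0.54; SAP30 and ING2 had 0.75 and 0.71, and both lie on chromosome 4. Of 5 measured CtBP corepressor genes 0 were past 2-fold at 24 h (median 0.02, and 0.09 with the GC trend subtracted), with CTBP1 at 0.58 (1.12 with the GC trend subtracted), KDM1A at -0.49, CTBP2 at 0.39 and EHMT1 at -0.09. CTBP1 had 10.3 CPM at 12 h against 444 CPM at 0 h, and it is also on chromosome 4.

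Of 4 acetyltransferase genes, 1 was higher and 1 lower at 24 h, against 10.5% and 10.8% of all genes, with a median of 0.14, or 0.46 with the GC trend subtracted. KAT2B (PCAF) had 24.2 CPM at 24 h against 8.35 CPM at 0 h (log2 change 1.43), and its paralog KAT2A (GCN5) had 61.0 CPM at 24 h against 136 CPM at 0 h (-1.15, and -0.62 with the GC trend subtracted). EP300 and CREBBP had 0.27 and 0.02. Of 7 ubiquitin ligase genes whose products act on KLF proteins, 1 was higher and 0 lower (median 0.37), against 10.5% and 10.8% of all genes, so that the count of higher genes is near the background. WWP1, the higher one, is known to act on KLF5 protein and had 116 CPM at 24 h against 41.0 CPM at 0 h, a log2 change of 1.48 and of 0.85 with the GC trend subtracted. FBXW7, BTRC and SIAH1 had 0.50, 0.38 and 0.37.

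Of 15 genes known from other systems as targets of KLF proteins, 10 were measured; 1 was higher and 5 lower at 24 h, against 10.5% and 10.8% of all genes. Their median was -0.66, or -0.22 with the GC trend subtracted. The higher one was TGFBR1, a TGF-beta receptor, with 23.02 CPM at 24 h against 9.56 CPM at 0 h (log2 change 1.19). DIO1, a thyroid hormone deiodinase, had 1.31 CPM at 24 h against 8.80 CPM at 0 h (-2.08), and SMAD7, an inhibitor of TGF-beta signalling on which KLF10 acts, had 3.93 CPM at 24 h against 17.0 CPM at 0 h (-1.87). The other 3 that were lower were PDGFA, ENG and BCAT2 (the last named to complete the count), at -1.17, -1.13 and -1.05. With the GC trend subtracted 0 were higher and 2 lower (DIO1 and SMAD7).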

How the data were processed

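Messenger RNA was read in 6 libraries of LNCaP cells, grouped by the time and treatment in their labels. The deposited table, on hg19 per the submitters' processing notes, gives per RefSeq transcript a count (tags, per the file headers) and an RPM value (ppm, per the file headers) scaled by the authors; an aligner, a counting tool or strand use were not given in the sources used here. Counts were analysed, and the deposited RPM was an alternative.

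From 18051 lines 50 exact repeats were dropped, and counts of a symbol were added, giving 17990 genes. Of 679 lines without a symbol 69 were named through RefSeq on GRCh38.p14, and 1 line was taken as KLF6 from its description. Changes were taken as log2((CPM + 1) with DHT over (CPM + 1) at 0 h), which understates changes of low genes. GC content came from GENCODE v29 for 11465 genes (96.2%), and the trend was a lowess curve (span 0.3). Ratios have exact conditional binomial intervals and levels exact Poisson intervals, at 95%. Python 3.11.15, SciPy 1.17.1, statsmodels 0.14.6 and edgeR 4.0.16 (TMM factors only) were used, and the calls and intervals were tested on simulated data. The simulated counts were Poisson, with no spread between replicates and no GC trend, so they do not test the calls against either. No coordinates of the deposited table are printed.

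Members and lists were chosen with earlier results of these data known, and a few listed genes are not reported here and stand in no list's count or sum. Named genes were all members, in each list the measured genes that changed most at 24 h (up to 4), and the 3 nearest time courses of members called at 24 or 48 h; marker lists and the other KLF genes are named whole, and BCAT2 and RPL9 were named after their values were seen, each as part of a count. Alternatives were TMM, median-of-ratios and the deposited scaling, pseudocounts of 0.25 and 5 CPM, a 1.5-fold rule, a rule on the near bound of the counting interval, GC correction, 1 transcript per symbol, no count minimum, other lengths and, at 12 h, genes outside chromosome 4 and distal chromosome 15.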

Additional observations from a re-analysis of the deposited data

How the results depend on the processing

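KLF4 at 12, 24 and 48 h, KLF5 and KLF15 from 6 h on, KLF6 at 48 h, KLF9 at 6 h and KLF10 at 24 and 48 h stayed past 2-fold under every scaling, pseudocount and GC setting run; no called change of a member reversed. Calls near the threshold moved. For members higher and lower, a pseudocount of 5 CPM gave 0 and 0 at 3 h and 3 and 1 at 6 h, and a rule on the near bound of the counting interval 1 and 0 at 3 h and 3 and 1 at 6 h. TMM gave 0 lower at 3 h and 1 lower at 24 h (without KLF13). Median-of-ratios gave 0 lower at 3 h, 3 higher at 6 h and 2 lower at 12 h, and a pseudocount of 0.25 CPM 2 lower at 12 h. GC correction gave 0 lower at 3 h, 1 at 6 h, 2 at 12 h and 1 at 24 h. The 1.5-fold rule gave 4 lower at 3 h, 4 at 12 h, 6 higher and 4 lower at 24 h, and 3 lower at 48 h. For this rule and the near-bound rule no share of all genes was taken, so those counts have no background. The members lower at 12 h under these settings include KLF3, whose 12 h value is not read as a change. At 48 h TMM gave 6 higher (also KLF3 and KLF9), and median-of-ratios and a pseudocount of 0.25 CPM 5 (also KLF3). Outside chromosome 4 and distal chromosome 15, an alternative added after seeing the data, 0 members and 420 genes were lower at 12 h. The cause of these moves was not tested beyond the settings themselves.

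Over all genes, a pseudocount of 0.25 CPM gave 134 higher and 179 lower at 3 h. A pseudocount of 5 CPM gave 38 and 19 at 3 h, 1132 and 151 at 6 h, 809 and 580 at 12 h, 691 lower at 24 h and 473 lower at 48 h. GC correction gave 108 and 47 at 3 h, 408 and 170 at 6 h, 463 and 852 at 12 h, 816 and 748 at 24 h and 820 and 572 at 48 h. The share of higher genes among those changed was 46.4% at 3 h (57.9% with TMM, 66.7% with a pseudocount of 5 CPM, 69.7% GC-corrected), 83.6% at 6 h (70.6% GC-corrected), 58.0% at 12 h (35.2%) and 49.3% at 24 h (64.6% with TMM). The 12 h counts and shares include chromosome 4 and distal chromosome 15, which were low in that library. Outside them 1284 genes were higher and 420 lower at 12 h, without GC correction. TMM moved the median of all genes at 24 h by 0.17.

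For the lists at 24 h, GC correction gave 0 SP factors, 1 SIN3 gene, 1 CtBP gene (CTBP1), 0 ubiquitin ligases and 0 KLF targets higher, and 0 acetyltransferases and 2 KLF targets lower; TMM gave 0 acetyltransferases and 3 KLF targets lower. With 12 h included, 1 of the 3 nearest genes of KLF6 was shared. With the median transcript length 6, 0 and 0 of 10 members kept their place in the order at 0, 24 and 48 h; with the length of the listed transcript, an alternative added after seeing the data, all 9 matched members did. No paired analysis was possible because each group has 1 library.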
